A study of Homo sapiens with 2 samples.

Results

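Exons of 50 to 250 bp with long gaps to the nearest listed exons on both sides were examined in RNA of Huh-7 cells, a human hepatocellular carcinoma line. An exon was taken when the gaps to the nearest non-overlapping listed exon before and after it on the same strand both measured 3 to 10 kb, with the mitochondrial rows left out. This rule used positions only and found 9302 of the 239322 exons listed (3.887%). They are called long-gap exons here, and were split into 3573 whose length is divisible by 3 and 5729 whose length is not. The cells, at passages 15 to 20 per the labels, had received 0.1% DMSO (control) or 0.1 mM BS008, an amiloride derivative studied for its effect on alternative splicing (AS), for 24 h, and 1 library was sequenced for each condition. The label of the treated library does not say whether it also held DMSO. With no second library, the spread between cultures is not known, and no difference reported here has a replicate check. Intervals and tests on reads cover counting error only, so they compare these libraries and not the conditions. The files name no genes, so the liver origin of the cells was not checked against marker genes and no exon is given a gene name. Coordinates are hg19.

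In vertebrate genes, an exon of this size between long introns is thought to be recognized as a unit. U1 snRNP binds the splice site at its end, U2AF binds the one at its start, and SR proteins bound within the exon help to join both complexes, whereas hnRNPs often oppose them. An exon that is not recognized in this way is left out of the mRNA together with both introns, which makes it a cassette exon. Loss of an exon whose length is divisible by 3 keeps the reading frame, while loss of any other coding exon shifts it and commonly exposes the mRNA to nonsense-mediated decay. The files do not say which exons are coding, nor whether neighboring rows belong to 1 transcript, so a gap is an intron only where they do.

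The long-gap exons had a median length of 126 bp (quartiles 94 and 164), with a median gap of 4989.5 bp upstream and 4876 bp downstream in the direction of transcription. Lengths divisible by 3 made up 38.41% of them, beside 38.7% of all exons of 50 to 250 bp, 39.47% of those with both gaps under 1 kb and 40.06% of those with both gaps of 1 to under 3 kb. The exons were near evenly divided between strands, with 4754 on the plus and 4548 on the minus strand. They formed 3.19% of the exons of this size on chromosome 19 and 3.8% on chromosome 17, but 7.81% on chromosome 18, 7.53% on chromosome 13 and 7.45% on chromosome 4. Of the 9302, 3805 had another long-gap exon as a neighbor and 506 had one on both sides, so that many are consecutive rows and not independent. An overlapping row on the same strand was listed for 50 of them.

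The control library held 55476654 counts and the BS008 library 53578432, of which the long-gap exons had 910023 (1.64%) and 792374 (1.479%). At least 1 read was found on 6165 long-gap exons in control (66.28%) and on 6296 after BS008 (67.68%), beside 65.74% and 66.88% of all exons. The share detected was 73.97% and 74.64% for exons of the same size with both gaps under 1 kb. In the files, 5873 long-gap exons had reads in both libraries, 292 only in control (3.14%, beside 3.46% of all exons), 423 only after BS008 (4.55%, beside 4.6%) and 2714 in neither. A count of 10 in 1 library with 0 in the other was reached by 3 exons in control and 14 after BS008, or 0.0323% and 0.151%, beside 0.0877% and 0.219% of all exons.

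Levels were compared on the RPKM scale, which divides counts by exon length and library total. The median long-gap exon stood at 1.901 RPKM in control (quartiles 0 and 12.61) and at 2.043 RPKM after BS008 (0 and 11.88). The medians were 2.035 and 2.158 RPKM for all exons of 50 to 250 bp, and 1.249 and 1.377 RPKM over all exons. For exons of this size with both gaps under 1 kb, they were 4.402 and 4.49 RPKM. Long-gap exons divisible by 3 had medians of 1.69 and 1.793 RPKM, and the others 2.044 and 2.24 RPKM. A level of 100 RPKM or more was reached by 244 of the 9302 long-gap exons in control and 190 after BS008. Of all 239322 exons, 8310 and 7299 reached it, and of the 171155 exons of 50 to 250 bp, 7091 and 6147 did. The long-gap exon with the highest level in control lies on chromosome 5 from 179143106 to 179143295 (plus strand, 190 bp), with 11046 reads (1048 RPKM) in control and 11366 (1117 RPKM) after BS008. Its flanking exons had 6886 and 6880 reads in control and 7142 and 7541 after BS008, so all 3 rows had slightly more reads after BS008. Its length and those of its neighbors recur as a run elsewhere in the files, and its reads are therefore uncertain. The next are a 75 bp exon of chromosome 9 (75520874 to 75520948, minus strand) with 862.1 RPKM in control and 709.5 after BS008, and a 95 bp exon of chromosome 12 (16510539 to 16510633, plus strand) with 795.0 and 488.2 RPKM. A 56 bp exon of chromosome 1 (205693054 to 205693109, minus strand) had 757.4 and 492.3 RPKM. A 109 bp exon of chromosome 6 (34730372 to 34730480, plus strand) had 744.0 and 594.2 RPKM. In these 5 exons, the percent of all reads on the exon and its neighbors that fell on the exon itself changed by -3.86 to 0.57 percentage points.

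The change in level of each exon is given as a log2 ratio (BS008 over control). Counts were first divided by the library total to give CPM, 0.5 CPM was added to each value, and exons with fewer than 10 counts in both libraries were left out. The median log2 ratio of the 5140 long-gap exons that passed was -0.066 (quartiles -0.374 and 0.248), beside -0.041 over all 131330 exons that passed and -0.035 and -0.101 for exons of this size with both gaps under 1 kb and of 1 to under 3 kb. At least 2-fold higher values were found for 100 long-gap exons (1.946%), beside 3.73% of all exons, and at least 2-fold lower values for 154 (2.996%), beside 3.79%. Of 1936 exons divisible by 3, 39 were higher (2.014%) and 68 lower (3.512%), and of 3204 others 61 (1.904%) and 86 (2.684%). Both counts depend on the pseudocount, with 340 higher and 400 lower at 0.1 CPM and 43 and 81 at 1 CPM. The largest increase where the higher library had at least 100 counts was on chromosome 10 from 79808739 to 79808983 (plus strand, 245 bp), with 6 reads in control and 915 after BS008 (log2 ratio 4.85). The 2282 bp row downstream of it went from 67 to 6344 reads (log2 ratio 6.12), and the 99 bp row upstream from 1621 to 2618 (0.73). The increase was thus shared with the downstream row more than with the upstream one, and 0.354% of the reads of these 3 rows in control and 9.26% after BS008 fell on the exon.

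In the other exons with large changes in CPM, the neighbors mostly moved with the exon. The 189 bp exon of chromosome 1 from 207504453 to 207504641 (plus strand) went from 27 to 337 reads (log2 ratio 2.78), and its neighbors from 10 to 163 and from 29 to 310. The 201 bp exon of chromosome 13 from 97995270 to 97995470 (plus strand) went from 79 to 490 reads (2.33) between neighbors that went from 71 to 482 and from 58 to 438. Among the decreases, the 110 bp exon of chromosome 3 from 196786760 to 196786869 (minus strand, an uncertain exon whose run of 3 lengths recurs elsewhere) went from 711 to 134 reads (-2.15). The 92 bp exon next to it, from 196778448 to 196778539, went from 658 to 131 (-2.07). These rows neighbor each other, so they are not separate observations. The largest decrease, in a 129 bp exon of chromosome 16, is described with its look-alikes further on.

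To measure an exon relative to its transcript, each was set against its nearest non-overlapping exon on either side, and the exon's part of the reads on these 3 rows, in percent, is called its share. Shares were tested by two-sided Fisher's exact tests on reads with Benjamini-Hochberg adjustment over all exons tested. An exon was called where the share moved by at least 10 percentage points and the adjusted p stood below 0.05. Exons needed at least 20 reads on the 3 rows in each library and both neighbors within 10 kb. Of 5457 long-gap exons tested, 53 were called (0.971%), beside 1.65% of all 99858 exons tested and 0.882% of those of 50 to 250 bp. The share was higher after BS008 in 21 (0.385%, beside 0.918% of all) and lower in 32 (0.586%, beside 0.728%). The percent called was thus close to that of exons of the same size and below that of all exons. In the median long-gap exon the share moved by 2.15 percentage points in either direction, beside 2.064 over all exons tested.

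**Figure D1:**
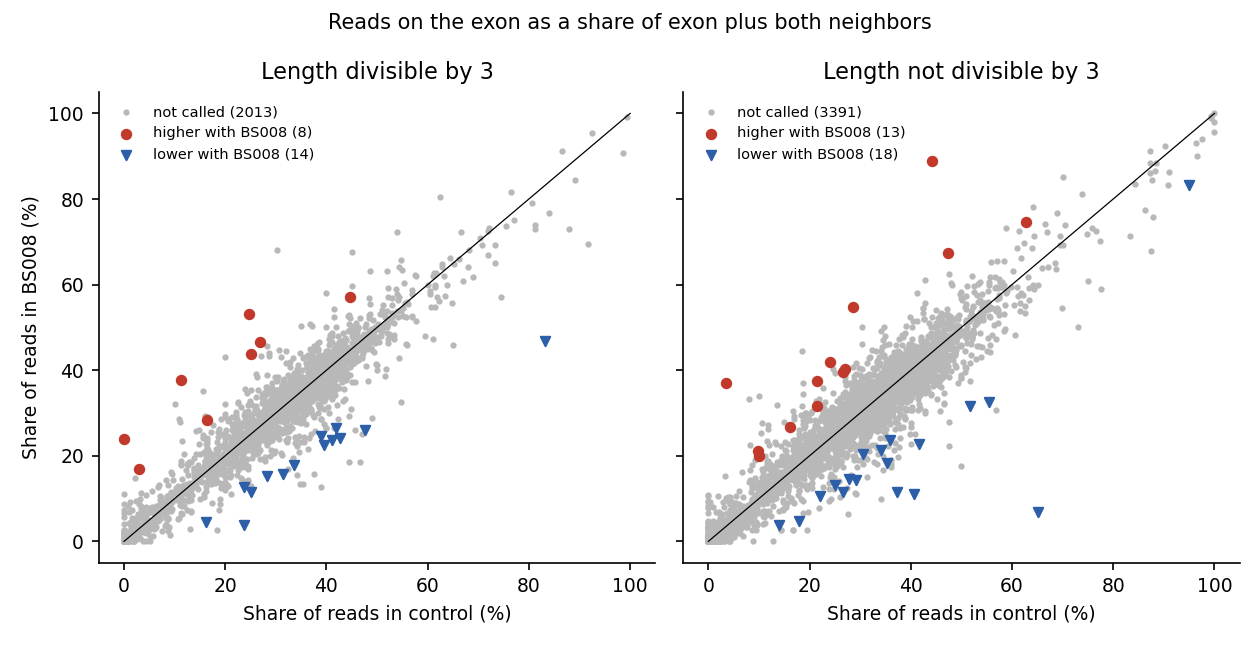
Share of reads on the exon among the exon and both neighbors, in percent, in control (x axis) and BS008-treated cells (y axis), for the 5457 long-gap exons tested, split by frame. Each point is 1 exon, and most lie near the diagonal of equal shares, with 21 called higher (red circles) and 32 called lower (blue triangles).

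The calls were spread over both frame classes. Of 2035 exons with a length divisible by 3, 22 were called (1.08%), with 8 higher and 14 lower. Of 3422 exons with other lengths, 31 were called (0.906%), with 13 higher and 18 lower. The median absolute change in share was 2.115 and 2.157 percentage points, respectively. Exons divisible by 3 made up 41.51% of those called and 37.29% of those tested.

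Exons of the same size with shorter gaps gave 168 calls of 22316 tested (0.753%) where both gaps were under 1 kb and 64 of 9178 (0.697%) where both were 1 to under 3 kb. This order did not hold among exons whose neighbors were themselves 50 to 250 bp long, that is, without rows that could be long first or last exons. There, 12 of 3340 long-gap exons were called (0.359%), beside 0.49% for gaps of 1 to under 3 kb, 0.594% for gaps under 1 kb and 1.06% for all exons. No difference between the gap classes is drawn from these values. Within the long-gap exons, 0.63% were called where the mean of both gaps was under 4000 bp (6 of 952), 0.659% from 4000 to 5499 bp (14 of 2125), 1.22% from 5500 to 7499 bp (24 of 1961) and 2.15% from 7500 bp upward (9 of 419). By exon length the same calls gave 0.615% for 50 to 99 bp, 1.21% for 100 to 149 bp, 0.636% for 150 to 199 bp and 1.96% for 200 to 250 bp. These groups include neighbors of any length, and no trend with gap length is drawn from them. At the lower edge of the rule, 5 of 1630 exons were called (0.307%) where the shorter gap was 3000 to 3499 bp, and 31 of 2586 (1.2%) where it was 2500 to 2999 bp, just outside. Near the upper edge, 3 of 298 were called where the longer gap was 9500 to 10000 bp.

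**Figure D2:**
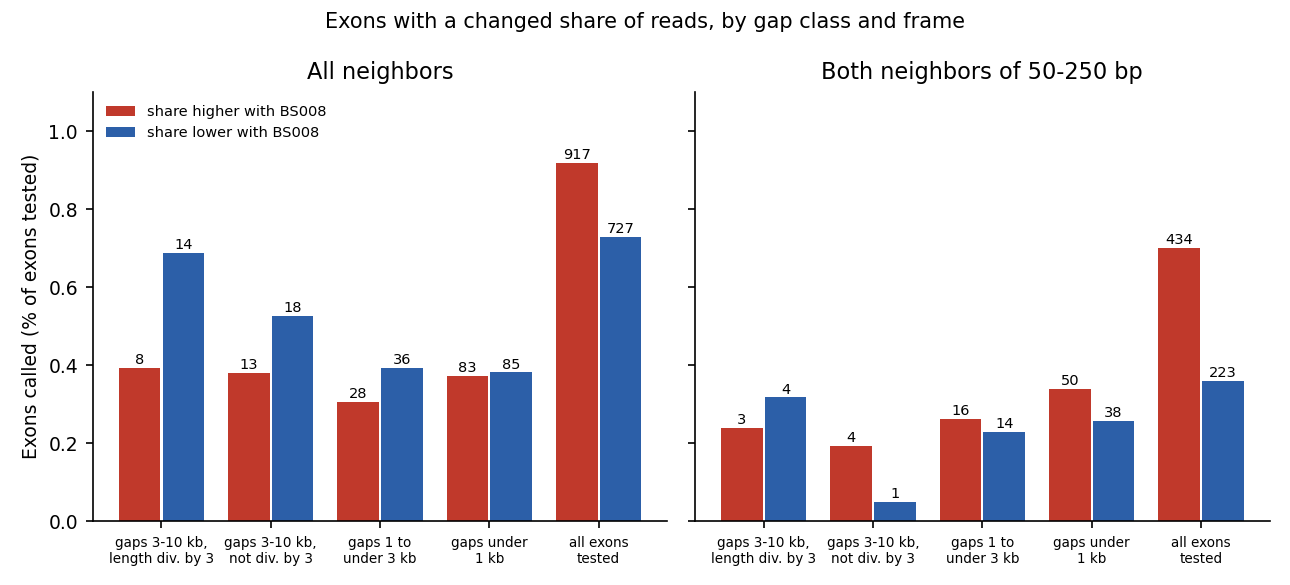
Percent of exons tested whose share of reads was called higher (red) or lower (blue) after BS008, with the number called above each bar, for long-gap exons by frame, for exons of the same size with shorter gaps and for all exons. With all neighbors (left) 8 and 14 exons divisible by 3 were called, and with neighbors of 50 to 250 bp only (right) 3 and 4 were.

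The called exons were then separated by which of the 3 rows moved. Among the 32 exons with a lower share, the exon's own log2 ratio of CPM stayed within 0.5 in 18 and was lower by at least 0.5 in 14. In 13 of the 18, at least 1 neighbor was 2-fold or more higher. A neighbor of 1000 bp or longer flanked 17 of the 32, in 12 upstream only and in 5 downstream only, whereas 14.22% of all long-gap exons tested had such a neighbor. Among the 21 exons with a higher share, 17 were themselves higher by at least 0.5 on the log2 scale and 4 stayed within 0.5. These counts by 0.5 were not made for other called exons. As a related measure, the exon's log2 ratio exceeded in size that of its summed neighbors in 32 of the 53 calls. This was so in 1003 of 1644 calls over all exons and 420 of 717 on exons of 50 to 250 bp. A neighbor of 1000 bp or longer flanked 6 of the 21. Over all exons, 185 of the 727 lower calls and 155 of the 917 higher calls had such a neighbor, beside 12.28% of those tested. For exons of 50 to 250 bp, 109 of 389 and 37 of 328 did, beside 11.13% of those tested. An exon stood apart when its log2 ratio lay beyond those of both neighbors, by more than they differed from each other. This held for 19 of the 53 called exons, 12 higher and 7 lower, and 9 of the 19 were divisible by 3. The 19 were 35.8% of the calls on long-gap exons, beside 45.9% of the calls on all exons (506 higher and 249 lower) and 39.7% of those on exons of 50 to 250 bp. With 0.5 CPM added, a neighbor with few reads has a log2 ratio near 0, so an exon can stand apart from it in name only. This separation was chosen after the calls had been seen.

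The largest rises in share among exons divisible by 3, with at least 100 reads on the 3 rows in each library, were the following. On chromosome 19, the 204 bp exon from 5951404 to 5951607 (minus strand) had 26 reads in control between neighbors with 101 and 103, and 48 reads after BS008 between neighbors with 31 and 48. Its share was 11.3% (95% Wilson confidence interval 7.83 to 16.1%) in control and 37.8% (29.8 to 46.5%) after BS008 (adjusted p = 8.3e-07, Fisher's exact test). The exon was higher and both neighbors were lower, so it stood apart. Per base the exon stayed below its neighbors, with a read density of 0.0556 and 0.254 times their mean, and computed on reads per base its share moved by 8.58 points. On chromosome 12, the 141 bp exon from 66553945 to 66554085 (minus strand) had 4 reads in control and 20 after BS008. Its neighbors had 3 and 129 reads, then 5 and 93, and its share went from 2.94% (1.15 to 7.32%) to 16.9% (11.2 to 24.7%). The 186 bp exon of chromosome 21 from 47660748 to 47660933 (plus strand) had 319 reads and then 264, while its neighbors fell from 18 to 3 and from 377 to 195. Its share rose from 44.7% (41.1 to 48.3%) to 57.1% (52.6 to 61.6%) although the exon itself had fewer reads, and per base it moved by 9.1 points. The 198 bp exon of chromosome 9 from 88897293 to 88897490 (minus strand) went from 16.4% (12.4 to 21.2%) to 28.5% (23.5 to 34.0%), with 44 and then 80 reads, and by 6.31 points per base. The exon of chromosome 16 from 21426278 to 21426406 completes these 5 and belongs to the look-alikes described further on.

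Of the 14 falls in share among exons divisible by 3, 7 had a neighbor of 1000 bp or longer. The 5 largest with at least 100 reads on the 3 rows in each library follow. The 141 bp exon of chromosome 7 from 128379346 to 128379486 (plus strand) had 123 reads in control and 91 after BS008, with no reads on its upstream neighbor. Its 815 bp downstream neighbor went from 25 to 103 reads, and the share fell from 83.1% (76.3 to 88.3%) to 46.9% (40.0 to 53.9%, adjusted p = 4.3e-10, Fisher's exact test). The exon's read density was 56.9 and 10.2 times the mean of its neighbors, and whether these 3 rows share a transcript was not tested. On chromosome X, the 213 bp exon from 57010699 to 57010911 (minus strand) had 35 and then 18 reads beside a 4119 bp upstream row with 108 and then 451. Its share fell from 23.6% (17.5 to 31.1%) to 3.797% (2.42 to 5.92%). The 78 bp exon of chromosome 13 from 47308056 to 47308133 (plus strand) had 76 and 62 reads, its 3258 bp downstream neighbor 26 and 118, and its share went from 42.7% to 24.1%. The 66 bp exon of chromosome 8 from 59477578 to 59477643 (plus strand) had 85 and 78 reads, its 1512 bp upstream neighbor 16 and 140, and its share went from 41.1% to 23.6%. Per base these last shares changed by -6.33 and -4.88 points, under the minimum for a call. In the 219 bp exon of chromosome 7 from 77558426 to 77558644 (plus strand), by contrast, the exon went from 92 to 35 reads and the downstream neighbor from 43 to 19, while the upstream row of 1559 bp went from 58 to 81. Its share fell from 47.7% (40.7 to 54.7%) to 25.9% (19.3 to 33.9%).

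Among exons whose length is not divisible by 3 and that had at least 100 reads on the 3 rows in each library, the largest rise was in the 124 bp exon of chromosome 7 from 45776386 to 45776509 (minus strand). It had 92 reads in control and 462 after BS008, between neighbors that went from 56 to 150 and from 46 to 73, and its share rose from 47.4% (40.5 to 54.4%) to 67.4% (63.9 to 70.8%). All 3 rows had more reads, and the exon the most (log2 ratio 2.08 against 1.13 upstream and 0.49 downstream). The 185 bp exon of chromosome 4 from 44712970 to 44713154 (minus strand) went from 64 to 117 reads and from 21.4% (17.1 to 26.4%) to 37.5% (32.3 to 43.0%). Its upstream neighbor had 31 and 38 reads, and its 4681 bp downstream neighbor 204 and 157. The 235 bp exon of chromosome 16 from 48286042 to 48286276 (plus strand) had 159 and 219 reads, while its neighbors went from 314 to 236 and from 114 to 89. Its share rose from 27.1% (23.7 to 30.8%) to 40.3% (36.2 to 44.4%), and per base it passed from 0.736 to 1.32 times the mean of its neighbors. The 98 bp exon of chromosome 2 from 233415357 to 233415454 (plus strand) had 122 and 195 reads and a share of 26.7% (22.9 to 30.9%) and 39.6% (35.4 to 44.0%). Its downstream neighbor had 330 and 291 reads, but its 861 bp upstream neighbor only 5 and 6, too few to show a change. By the measure above these 4 exons stood apart from both neighbors, the last in effect from its downstream neighbor only. The fifth, a 122 bp exon of chromosome 3 from 195404598 to 195404719 (plus strand), did not stand apart. It had 44 and 54 reads while its downstream neighbor went from 129 to 58.

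At the same minimum of 100 reads, the largest fall with a length not divisible by 3 was in the 188 bp exon of chromosome 5 from 70503770 to 70503957 (minus strand), with 65 reads in control and 13 after BS008. Its downstream neighbor went from 22 to 2 reads and the 2490 bp row upstream from 73 to 103, and the share fell from 40.6% (33.3 to 48.4%) to 11.0% (6.55 to 17.9%). The 197 bp exon of chromosome 17 from 26982305 to 26982501 (minus strand) went from 236 to 71 reads. Its upstream neighbor rose from 59 to 353 and its downstream neighbor went from 338 to 189, so that the share fell from 37.3% (33.6 to 41.1%) to 11.6% (9.29 to 14.4%, adjusted p = 3.4e-24, Fisher's exact test). The rows on either side of this exon thus moved in opposite directions. The 137 bp exon of chromosome 4 from 147431065 to 147431201 (minus strand) held 77 reads in both libraries, and its share of 55.4% and then 32.5% followed from an upstream row of 1249 bp with 4 and then 97 reads. The 58 bp exon of chromosome 1 from 211477425 to 211477482 (plus strand) went from 107 to 42 reads and from 51.7% to 31.6%. The 127 bp exon of chromosome 11 from 31477807 to 31477933 (minus strand) had 58 and 53 reads, and its share went from 41.7% to 22.7% beside an 894 bp downstream row with 36 and then 145. None of these 5 falls stood apart from both neighbors, and per base those on chromosomes 5, 4 and 11 came to -2.96, -4.04 and -2.65 points, under the minimum for a call.

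**Figure D3:**
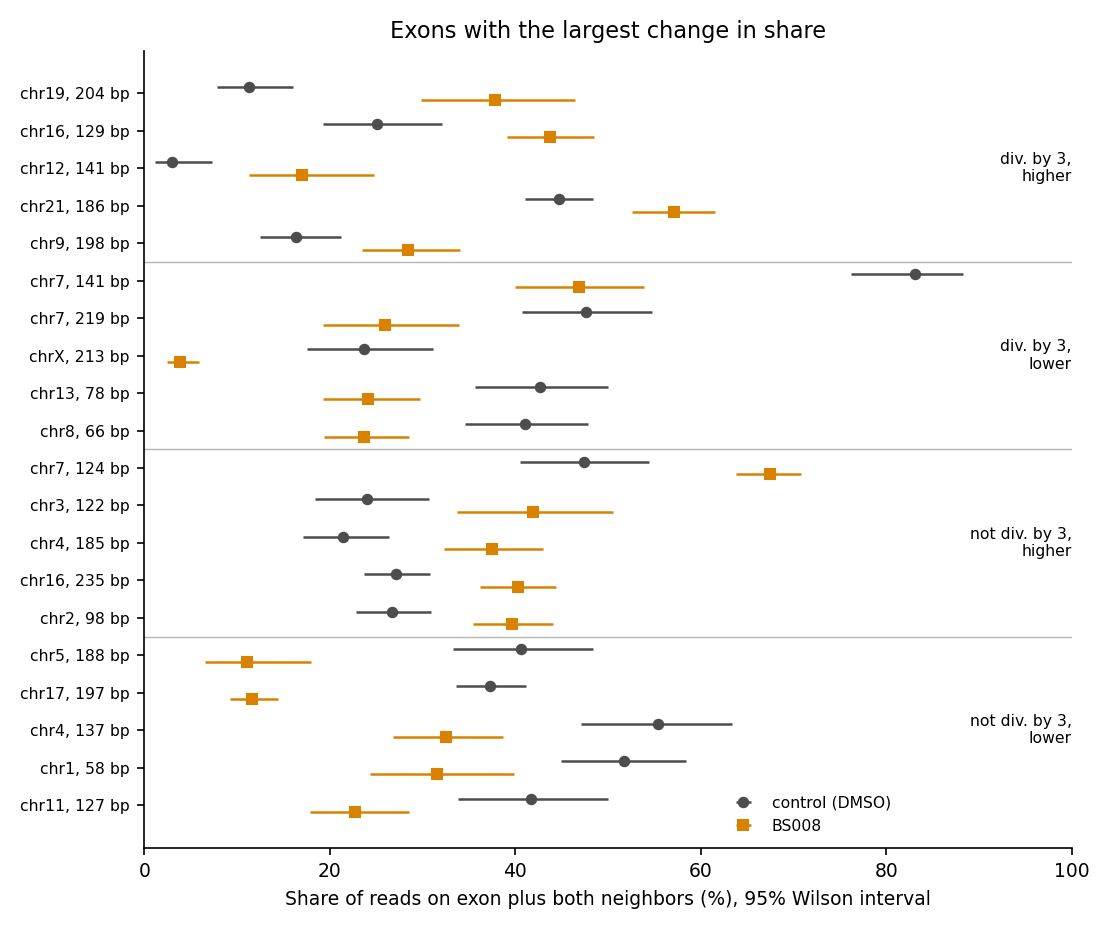
Share of reads in percent (x axis) in control (gray circles) and BS008-treated cells (orange squares) for the 20 exons with the largest change in each direction and frame class among those called with at least 100 reads on the 3 rows in each library, labeled by chromosome and length. Bars are 95% Wilson intervals, which cover the sampling of reads only, and the largest difference shown is that of the 141 bp exon of chromosome 7, at 83.1% and 46.9%.

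Falls in which the exon itself stood apart from both neighbors were fewer, and those given here were chosen after their values had been seen. The 66 bp exon of chromosome 12 from 14599922 to 14599987 (plus strand) had 102 reads in control and 46 after BS008, between neighbors with 145 and 78 reads in control and 150 and 97 after BS008. Its share went from 31.4% (26.6 to 36.6%) to 15.7% (11.98 to 20.3%). The 134 bp exon of chromosome 20 from 36676750 to 36676883 (plus strand) had 224 and then 89 reads, while its neighbors went from 148 to 87 and from 251 to 201. Its share went from 36.0% (32.3 to 39.8%) to 23.6% (19.6 to 28.1%). The first of these is divisible by 3 and the second is not. In the opposite direction, a 93 bp exon of chromosome 1 from 113093223 to 113093315 (minus strand) had no read in control, where its neighbors had 15 and 19, and 25 reads after BS008, where they had 37 and 42. Its share was 0 of 34 reads in control, which allows up to 8.82% (3 counts of the total) or 10.15% (Wilson interval). After BS008 its share was 24.0% (16.9 to 33.1%).

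Chromosome 16 held 10 of the 53 calls, 4 higher and 6 lower, on 230 exons tested (4.35%), beside 0.823% on all other chromosomes (43 of 5227). Over all exons tested, 3.1% were called on chromosome 16. Of the 10 calls, 4 were on exons of exactly 129 bp that lie before a row of exactly 100 bp, and 12 long-gap exons of this chromosome had this arrangement, which was chosen for description after the values had been seen. Gaps to the 100 bp row were also alike, from 3595 to 3633 bp. If such rows are near-identical copies, the counting could have split reads between them, and their sequence was not used here, so all 12 are uncertain.

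The look-alikes moved in opposite directions. The exon from 30246772 to 30246900 (minus strand) went from 330 to 35 reads (log2 ratio -2.48), the largest decrease among long-gap exons with at least 100 counts. The exon from 15035669 to 15035797 (plus strand) went from 205 to 69 (-1.23). By contrast, the exon from 15467572 to 15467700 (minus strand) went from 22 to 126 (1.67), that from 21426278 to 21426406 (minus strand) from 44 to 185 (1.61) and that from 22535141 to 22535269 (plus strand) from 44 to 159 (1.42). The exons starting at 14809925 and 14849049, on the plus strand, had the same counts as each other, 16 in control and 13 after BS008. Summed over all 12, there were 889 reads in control and 830 after BS008 (log2 ratio -0.047), and the 100 bp rows downstream summed to 1092 and 1053 (-0.0022). Over all 22 rows of these lengths in this order in the whole table, whether long-gap exons or not, there were 3560 and 4096 reads (0.25), and 2720 and 3092 on the 100 bp rows (0.23). The 5 rows given with log2 ratios thus moved by more than either sum. Whether reads of 1 copy were placed on another was not tested.

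**Figure D4:**
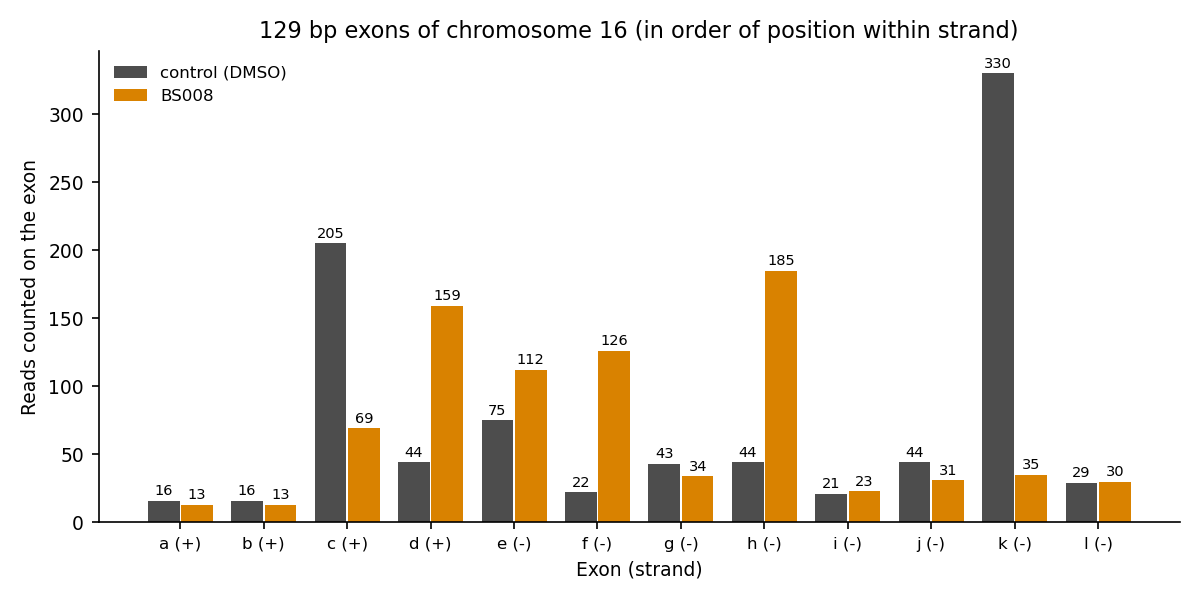
Reads counted (y axis) on each of the 12 long-gap exons of 129 bp of chromosome 16 that precede a 100 bp row, in control (gray) and BS008-treated cells (orange), ordered by position within each strand. Exons c and k have fewer reads after BS008 (205 and 69, 330 and 35), and exons d, f and h have more (44 and 159, 22 and 126, 44 and 185).

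The share grows with exon length, so inclusion was also described per base. The relative density of an exon was its RPKM divided by the mean RPKM of its neighbors, which is near 1 for an exon present in all transcripts that hold the neighbors. Its median over the 5457 long-gap exons was 1.021 in control (quartiles 0.71 and 1.428) and 1.021 after BS008 (0.713 and 1.395). For exons of this size with both gaps under 1 kb it was 1.03 and 1.033, with narrower quartiles of 0.779 and 1.37 in control. In the median long-gap exon with at least 100 reads on the 3 rows, the relative density differed between the libraries by 0.148 on the log2 scale. It decreased with length, from 1.183 in control for exons of 50 to 99 bp to 0.916 for 150 to 199 bp and 0.875 for 200 to 250 bp. After BS008 the same medians were 1.156, 0.952 and 0.907.

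A relative density far below 1 can arise, for example, from an exon skipped in most transcripts or from neighbors of another gene. The files do not tell these or other sources apart. An exon was of low density when its RPKM was under 0.5 times that of its lower neighbor. This was so for 366 long-gap exons in control (6.71%) and 356 after BS008 (6.52%), of which 273 were the same exons (5.0% of those tested). The same measure in both libraries gave 2.89% of exons with both gaps under 1 kb, 2.97% with gaps of 1 to under 3 kb and 6.04% of all exons. Exons divisible by 3 were 39.56% of the 273 and 37.29% of those tested. The percent of low density in both libraries was 4.1% where the mean gap was under 4000 bp (39 of 952) and 4.38% from 4000 to 5499 bp (93 of 2125). It was 5.76% from 5500 to 7499 bp (113 of 1961) and 6.68% from 7500 bp upward (28 of 419). These groups include neighbors of any length, and no trend with gap length is drawn from them. Another 93 exons were of low density in control only (1.7%, beside 1.96% of all exons tested) and 83 after BS008 only (1.52%, beside 1.54%). Of the former 2 and of the latter 0 were also called by share. Over all exons tested this was so for 199 of 1958 and 93 of 1536. For those of 50 to 250 bp it was so for 67 of 1180 and 25 of 930.

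**Figure D5:**
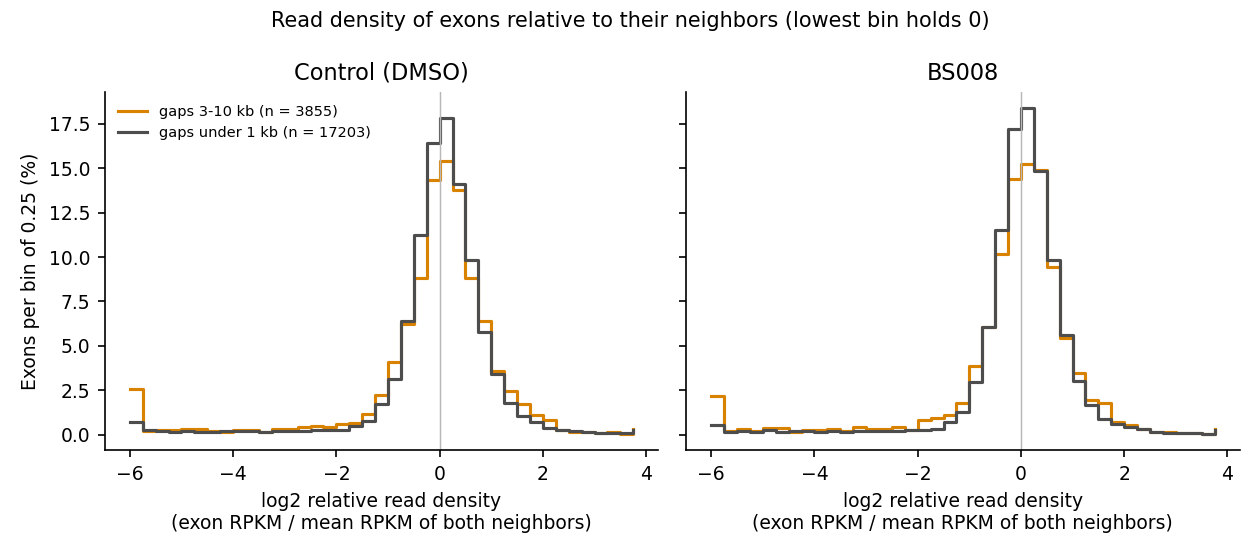
Distribution of the log2 relative read density (x axis, exon RPKM over the mean RPKM of both neighbors) in bins of 0.25, in percent of exons (y axis), for long-gap exons (orange) and exons of the same size with both gaps under 1 kb (gray) with at least 100 reads on the 3 rows in each library. Both curves peak near 0 in both libraries, and exons without reads fall in the lowest bin.

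Exons with almost no reads between well-covered neighbors were present in both libraries. Of 3855 long-gap exons with at least 100 reads on the 3 rows, 165 had a relative density under 0.05 in control (4.28%) and 157 after BS008 (4.07%), beside 3.63% and 3.17% of all exons at this depth and 2.01% and 1.84% of those of this size with both gaps under 1 kb. In 12 of the 3855 (0.311%, beside 0.235% of all), no read fell on the exon in either library while each neighbor had at least 20 reads in each. An example, chosen after its values had been seen, was the 70 bp exon of chromosome 9 from 111808509 to 111808578 (minus strand), where the neighbors had 292 and 185 reads in control and 226 and 144 after BS008. A count of 0 of these reads allows a share of up to 0.629% and 0.811% (3 counts of the total). The 82 bp exon of chromosome 2 from 136422967 to 136423048 (plus strand) likewise had 0 reads beside neighbors with 221 and 241 in control and 171 and 248 after BS008, which allows up to 0.649% and 0.716%. Of the 12 silent exons, 6 were divisible by 3. In these exons no inclusion was detectable at this depth in either library.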

How the data were processed

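RNA libraries from an Illumina mRNA-seq kit, 1 for control and 1 for BS008, were used as the authors deposited them, as raw read counts per exon and as RPKM values. The build is hg19 per the submitters' processing notes, and the aligner, counting tool, strand setting and annotation are not given in the sources used here. RPKM recomputed from counts, row lengths and library totals matched the deposited values to within 4.7e-06. The annotation at hand was on GRCh38 and was not used.

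Members followed a rule on positions only, but the rule, tests and classes were chosen with earlier results of these data known. Neighbors were the nearest non-overlapping rows on the same strand (the longest where several tied, which concerned 31 long-gap exons). The text names, by rule, 5 called exons per direction and frame class (largest change of share, at least 100 reads on the 3 rows in each library), the 5 highest by RPKM in control and the 3 largest changes in CPM per direction (at least 100 counts in the higher library). An exon was marked uncertain when its length and those of its neighbors recur in that order elsewhere, which held for 11.05% of long-gap exons tested. The smallest share of a library that could be shown (3 counts) was 5.4e-06% in control and 5.6e-06% after BS008. Python 3.11.15, numpy 2.4.6, scipy 1.17.1, pandas 2.3.3, and, for normalization factors only, R 4.3.3 with edgeR 4.0.16 and DESeq2 1.42.0 were used.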

Additional observations from a re-analysis of the deposited data

How the results depend on the processing

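With 1 library per condition, no depth replaces a second culture. No paired analysis was possible because each group holds 1 library, and none could be left out. The numbers of long-gap exons detected stayed within 1.5 times with minimums of 3 and 10 reads. Among detected exons only, the median level was 7.837 RPKM in control and 7.289 RPKM after BS008. The 100 higher and 154 lower exons in CPM became 340 and 400 with a pseudocount of 0.1 CPM, 43 and 81 with 1 CPM, and 427 and 676 at 1.5-fold. Other count minimums, TMM and DESeq2 factors and totals without mitochondrial rows left both within 1.5 times.

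The 21 higher and 32 lower shares became 7 and 7 with a minimum of 20 percentage points, 45 and 60 with 5 points, 7 and 5 with neighbors of 50 to 250 bp, and, in settings added after seeing the data, 12 and 7 for exons apart from both neighbors and 15 and 15 with neighbors under 1000 bp. In the same order, the 22 calls on lengths divisible by 3 became 5, 40, 7, 9 and 13, and the 31 on other lengths 9, 65, 5, 10 and 17. With gaps under 1 kb, the 168 calls became 45, 388, 88 and 67 in the first 4 of these settings, and with gaps of 1 to under 3 kb the 64 became 14, 140, 30 and 24. Stricter settings test or admit fewer exons by construction. A minimum of 100 reads, shares of reads per base, and leaving out overlapping rows and recurring runs of lengths kept these counts within 1.5 times. Relative densities also stayed within 1.5 times, with medians of 1.181 (control) and 1.148 (BS008) against the upstream neighbor alone and 0.9726 and 0.9704 against the downstream one. At 100 reads or more, the median log2 ratio of downstream over upstream RPKM was 0.181 in control and 0.149 after BS008. Over all exons at this depth it was 0.0772 and 0.0836. Of the exons named for a change, none of the 20 shares changed direction per base (8 moved by under 10 points), and none of the 6 CPM ratios did under the other pseudocounts and scalings.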
